A study of Mus musculus with 8 samples.

Results

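Antigen presentation genes of the major histocompatibility complex (MHC) were compared between lungs of mice carrying a Fra-2 transgene and lungs of wild-type mice. The genes were chosen by name: every gene whose platform symbol begins with H2-, the mouse MHC prefix, together with B2m, Tap1, Tap2, Tapbp, Psmb8, Psmb9, Cd74 and Ciita. They number 49 of the 20863 genes measured and are read by 80 of 31465 named spots. For each gene the spot with the highest mean log2 intensity over the 8 arrays was used. By role they comprise 3 classical class I genes, 26 non-classical class I genes, B2m, 3 peptide loading genes, 2 immunoproteasome genes, 10 class II chain genes and 2 class II partners. A further 2, H2-Ke2 (Pfdn6 in RefSeq) and H2-Ke6, lie in the region and carry its prefix but encode no MHC chain.

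The Fra-2 TG group held 4 mice that overexpress Fra-2, the AP-1 transcription factor encoded by Fosl2, and the WT group held 4 wild-type mice. All 8 mice were of the C57BL/6 background and 8 weeks old, and RNA of the lung of each mouse was hybridised to 1 single-colour Agilent array. The labels do not name the promoter that drives the transgene. Fra-2 transgenic mice widely used in fibrosis research express Fosl2 from the promoter of the class I gene H2-K, and whether the present mice carry that construct is not given in the sources used here.

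MHC class I molecules sit on nearly all nucleated cells and show peptides cut by the proteasome to CD8 T cells. The peptides are carried into the endoplasmic reticulum by the TAP transporter, and the heavy chain is held there with beta-2 microglobulin. Class I molecules are also read by natural killer cells through inhibitory receptors. Class II molecules are made by B cells, dendritic cells and macrophages, and in the lung also by alveolar type 2 cells, and show peptides from endosomes to CD4 T cells. Many class I and class II promoters share an upstream module of X and Y boxes, through which the transactivators NLRC5 (class I) and CIITA (class II) act.

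The promoters of genes at either side of the comparison are shown because many class I and class II members share this module. Each window is RefSeq sequence of the GRCm38.p6 build, 5′ to 3′ on the gene's strand, from 250 bases before to 50 bases after the start, and 35 of the 49 members had a window. Capitals mark, on that strand, TGATG or TGACG (the X2 box, which overlap each other in H2-D1) and ATTGG (the Y box). In the 2 class I genes, the kappaB site of enhancer A and, after it, the core of the interferon response element are in capitals too. In B2m and the class II genes AGCAAC (part of the X1 box) is in capitals where it occurs, which among these is in H2-Eb2 alone. There the first stretch runs into the X2 box, and the second, after the Y box, matches only in letters.
H2-K1, chr17:34000298-34000597, minus strand: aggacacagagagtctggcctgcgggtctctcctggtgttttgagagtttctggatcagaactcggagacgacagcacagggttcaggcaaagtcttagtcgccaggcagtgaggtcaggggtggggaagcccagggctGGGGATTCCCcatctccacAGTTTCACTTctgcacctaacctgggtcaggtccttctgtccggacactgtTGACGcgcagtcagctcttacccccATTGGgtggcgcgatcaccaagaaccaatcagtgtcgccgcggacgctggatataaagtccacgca
H2-D1, chr17:35262844-35263143, plus strand: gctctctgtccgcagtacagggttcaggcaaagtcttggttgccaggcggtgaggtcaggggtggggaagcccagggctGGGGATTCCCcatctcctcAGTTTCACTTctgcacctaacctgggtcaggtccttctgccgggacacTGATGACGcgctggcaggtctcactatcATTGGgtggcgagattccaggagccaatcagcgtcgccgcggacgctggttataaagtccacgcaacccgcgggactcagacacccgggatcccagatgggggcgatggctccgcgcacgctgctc
B2m, chr2:122147437-122147736, plus strand: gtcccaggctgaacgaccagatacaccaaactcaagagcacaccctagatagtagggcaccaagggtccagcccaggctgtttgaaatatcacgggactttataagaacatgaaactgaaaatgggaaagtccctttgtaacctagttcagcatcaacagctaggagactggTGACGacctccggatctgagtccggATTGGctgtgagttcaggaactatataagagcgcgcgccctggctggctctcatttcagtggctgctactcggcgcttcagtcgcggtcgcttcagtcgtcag
H2-Aa, chr17:34287774-34288073, minus strand: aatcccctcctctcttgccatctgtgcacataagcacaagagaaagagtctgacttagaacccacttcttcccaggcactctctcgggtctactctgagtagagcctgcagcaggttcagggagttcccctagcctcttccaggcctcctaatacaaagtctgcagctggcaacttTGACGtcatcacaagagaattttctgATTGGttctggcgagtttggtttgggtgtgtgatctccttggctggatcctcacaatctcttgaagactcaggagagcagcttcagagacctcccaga
H2-Eb2, chr17:34325425-34325724, plus strand: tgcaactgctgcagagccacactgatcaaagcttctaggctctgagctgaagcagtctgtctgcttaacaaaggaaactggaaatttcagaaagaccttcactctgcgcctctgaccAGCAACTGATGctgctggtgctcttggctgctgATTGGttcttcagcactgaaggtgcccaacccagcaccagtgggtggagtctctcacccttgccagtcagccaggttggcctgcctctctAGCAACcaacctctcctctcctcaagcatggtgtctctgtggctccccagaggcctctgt
H2-DMb2, chr17:34144999-34145298, plus strand: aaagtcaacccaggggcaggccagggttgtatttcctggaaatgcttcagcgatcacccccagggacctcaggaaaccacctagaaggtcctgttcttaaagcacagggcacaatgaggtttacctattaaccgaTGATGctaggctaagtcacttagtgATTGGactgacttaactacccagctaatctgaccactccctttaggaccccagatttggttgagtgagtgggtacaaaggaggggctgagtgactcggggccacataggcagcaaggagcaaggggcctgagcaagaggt

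Searched on both strands, TGATG or TGACG followed on the same strand by ATTGG with 10 to 35 bases between them was found in 6 of the 8 class II chain genes with a window and in 10 of the 20 class I genes. Of all 32851 promoter windows 2.13% held it. The kappaB site, as it stands in capitals in H2-K1, was found in 4 class I genes (H2-K1, H2-D1, H2-Q6 and H2-Q7), in 0 of the 8 class II chain genes and in 0.107% of all windows. The interferon response core, as in H2-K1, was found in 7 class I genes, in 0 class II chain genes and in 0.14% of all windows. The AP-1 motif TGANTCA was found in 2 of 8 class II chain genes (H2-DMa and H2-DMb1) and in 2 of 20 class I genes (H2-M1 and H2-M10.3), against 7.81% of all windows. A gene can have several windows. Counted by gene, as the members are, these patterns were found in 668, 34, 45 and 2425 of all 27025 genes, in the order given. These are matches of letters and do not show binding.

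None of the 49 members passed the test between Fra-2 TG and WT lungs (limma, Benjamini-Hochberg adjusted p over all 20863 genes, threshold 0.05), where 0.216% of all genes passed, 0.125% higher and 0.0911% lower. Before adjustment, 3 members had a limma p under 0.05, 2 of them higher and 1 lower in Fra-2 TG lungs, against 5.33% higher and 3.82% lower of all genes, or 9.15% in either direction. The 2 were the class II genes H2-DMb2 and H2-Eb2, and the 1 was H2-Ea-ps. The values of the groups did not overlap in 1 member, H2-Ea-ps, which was lower, against 2.54% of all genes lower without overlap and 3.99% higher (6.53% in all). These shares of the members are near or below the shares of all genes. Differences are Fra-2 TG minus WT on the log2 scale, with limma's moderated standard error (SE), and a median intensity over all spots, 4.74 on the log2 scale, was taken as the floor for dim signals. Of the 49 members 37 had a mean above it.

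By role, the differences of the 29 class I chain genes were close to evenly split, 16 negative and 13 positive, with a median of -0.16. Of the 19 with a mean above the floor 14 were negative (median -0.26). Of the 10 class II chain genes and Cd74, 10 of 11 were positive, with a median of 0.42, the exception being H2-Ea-ps. Over all genes 10925 of 20863 were positive and the median was 0.01. Class I genes are near copies of each other, and a spot may read several of them, so neither class is a set of independent measurements.

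**Figure D1:**
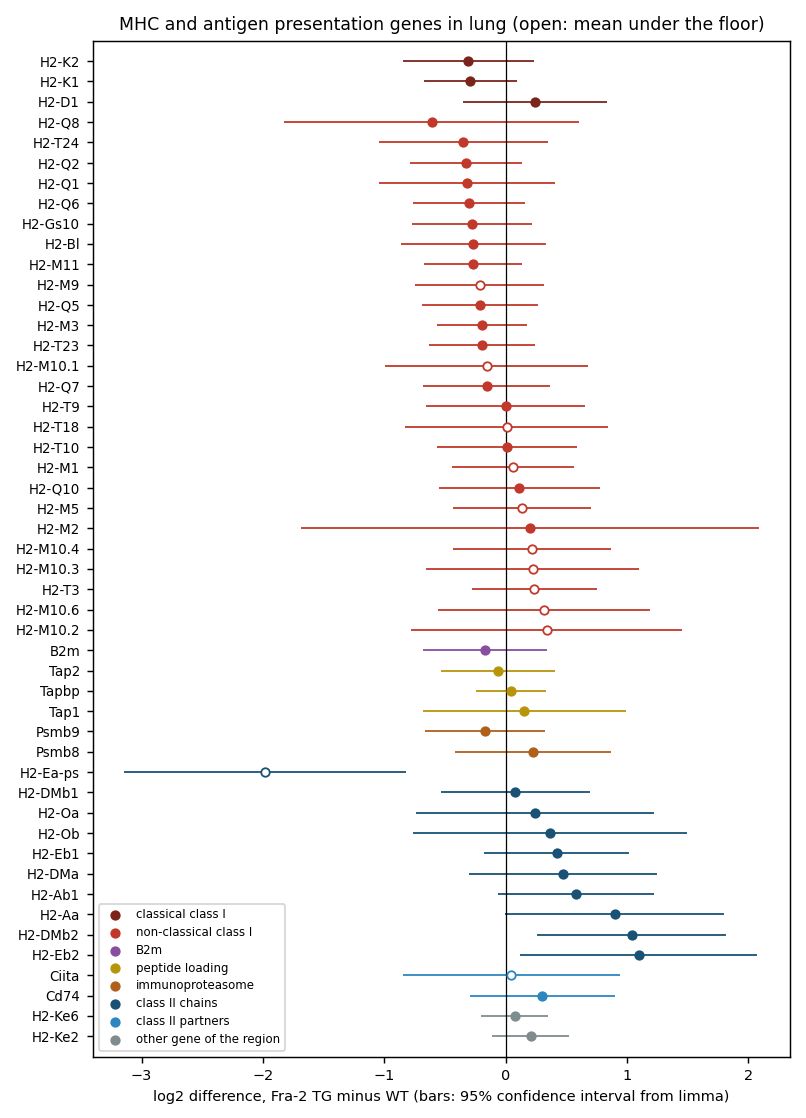
Log2 difference, Fra-2 TG minus WT, of the 49 members, with 95% confidence intervals from limma on the horizontal axis and genes ordered by role and size down the page. Filled points have a mean above the floor and open points a mean under it; class I genes above the floor mostly lie left of 0, class II genes other than H2-Ea-ps lie right of it, and all intervals cross 0 except those of H2-Ea-ps, H2-DMb2 and H2-Eb2.

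Among classical class I genes, whose heavy chains present peptide to CD8 T cells, H2-K1 had log2 levels of 14.97, 15.18, 15.40 and 15.64 in Fra-2 TG mice 1 to 4, against 15.70, 15.68, 15.58 and 15.39 in WT mice 1 to 4. Fra-2 TG mice 1 and 2 lay below all 4 WT mice, while Fra-2 TG mouse 4 lay within their range. The difference was -0.29 (SE 0.17, 95% confidence interval -0.68 to 0.09, limma adjusted p = 0.645). H2-K2, annotated by RefSeq as a transcribed pseudogene, had the like order, with 14.19, 14.41, 14.52 and 14.97 in Fra-2 TG mice, against 14.997, 15.03, 15.03 and 14.26 in WT mice (-0.31, SE 0.24, limma adjusted p = 0.734).

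H2-D1, the other classical gene, stood at 14.16, 14.46, 14.54 and 14.85 in Fra-2 TG mice, against 14.05, 14.99, 14.01 and 14.01 in WT mice. Its groups overlapped because WT mouse 2 lay above all 7 other mice. The difference of 0.24 (SE 0.26, 95% confidence interval -0.35 to 0.83, limma adjusted p = 0.811) was opposite in sign to that of H2-K1, and neither passed the test. Both promoter windows hold the kappaB site, the interferon response core and the X2 and Y boxes in the same order. A link between these letters and the levels was not tested.

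H2-K1 and Tap1 were read by 11 and 10 spots on each array, which gives the spread between spots within an array. Whether the spots of a gene carry the same probe could not be checked. Over the Tap1 spots the SD within an array ran from 0.18 in Fra-2 TG mouse 4 to 0.54 in WT mouse 4. Leaving aside the dimmest H2-K1 spot, which was set apart after its values were seen, the SD over the 10 H2-K1 spots of an array ran from 0.06 in WT mouse 1 to 0.19 in Fra-2 TG mouse 3. The medians of those spots were 14.79, 15.06, 15.25 and 15.50 in Fra-2 TG mice, against 15.59, 15.57, 15.50 and 15.17 in WT mice. All 10 spots gave a negative difference (-0.36 to -0.25), but they lie on the same arrays and add no mice. The dimmest spot, at 13.57, 13.68, 13.84 and 14.23 in Fra-2 TG mice, against 14.15, 14.31, 14.14 and 13.68 in WT mice, gave -0.24. The other H2-K1 spots lay close to the upper limit of a scanner (16 as a log2 value), and a loss of range there was not tested.

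**Figure D2:**
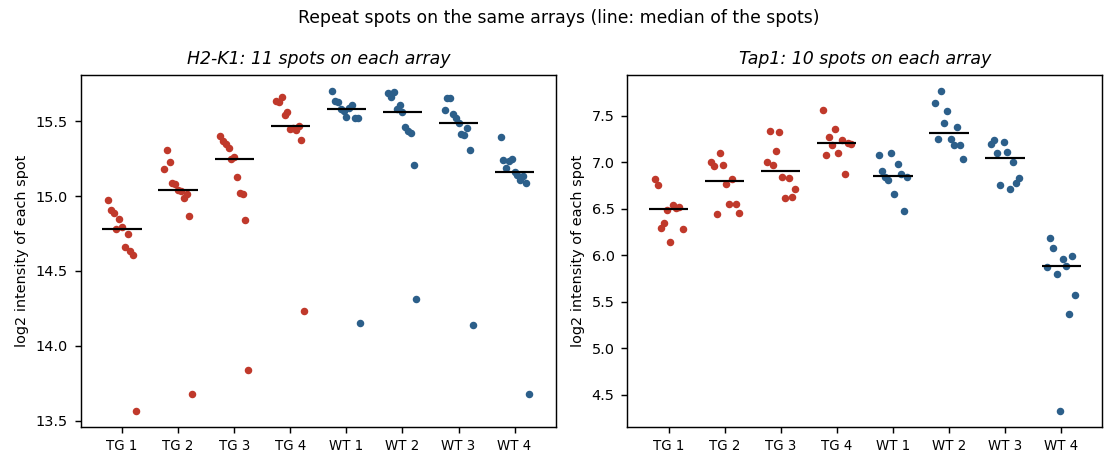
Log2 intensity of each H2-K1 spot (left, 11 spots) and Tap1 spot (right, 10 spots) on each array, Fra-2 TG mice in red and WT mice in blue, with the median of the spots as a line. The H2-K1 spots of Fra-2 TG mouse 1 and the Tap1 spots of WT mouse 4 lie lowest, apart from the single dim H2-K1 spot that follows the others at a lower level.

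Of the 26 non-classical class I genes, 16 had a mean above the floor, 12 of them with a negative difference and 4 with a positive one, and the means of the other 10 (H2-M1, H2-M5, H2-M9, H2-T3, H2-T18 and 5 H2-M10 genes) lay under the floor in both groups. H2-Q2 stood at 13.90, 14.07, 14.16 and 14.37 in Fra-2 TG mice, against 14.71, 14.66, 14.53 and 13.92 in WT mice (-0.33, SE 0.20, limma adjusted p = 0.674). H2-Q6 stood at 12.75, 12.89, 13.00 and 13.47 in Fra-2 TG mice, against 13.45, 13.54, 13.39 and 12.92 in WT mice (-0.30, SE 0.20, limma adjusted p = 0.696). In each gene the Fra-2 TG values of mice 1 to 3 lay below those of WT mice 1 to 3, and WT mouse 4 lay among the Fra-2 TG mice.

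H2-T23 encodes Qa-1, the ligand of the inhibitory NKG2A receptor of natural killer cells. It stood at 14.04, 14.30, 14.48 and 14.55 in Fra-2 TG mice, against 14.64, 14.75, 14.68 and 14.07 in WT mice, and the groups overlapped through WT mouse 4 (-0.20, SE 0.19, 95% confidence interval -0.63 to 0.24, limma adjusted p = 0.793). H2-M3, which presents formylated bacterial peptides, stood at 9.13, 9.38, 9.42 and 9.85 in Fra-2 TG mice, against 9.62, 9.72, 9.68 and 9.55 in WT mice (-0.20, SE 0.16, limma adjusted p = 0.755). H2-T24, of the T region, stood at 7.93, 8.26, 8.40 and 7.24 in Fra-2 TG mice, against 8.29, 8.11, 8.90 and 7.92 in WT mice (-0.35, SE 0.30, limma adjusted p = 0.769), and the groups overlapped. H2-M11 stood at 5.09, 4.77, 4.96 and 5.43 in Fra-2 TG mice, against 5.35, 5.03, 5.50 and 5.42 in WT mice (-0.26, SE 0.18, limma adjusted p = 0.693).

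In 3 of the 16 non-classical genes above the floor (H2-Gs10, H2-Q1 and H2-T24) Fra-2 TG mouse 4 was the lowest of its group, against highest in 13. H2-Gs10, named H2-Q4 in RefSeq, stood at 14.28, 14.55, 14.30 and 13.61 in Fra-2 TG mice, against 14.28, 14.27, 14.61 and 14.67 in WT mice (-0.27, SE 0.22, limma adjusted p = 0.740). In it Fra-2 TG mouse 4 was the lowest of all 8 mice and WT mouse 4 the highest, whereas in H2-K1, H2-Q6 and H2-M3 Fra-2 TG mouse 4 was the highest of its group and WT mouse 4 the lowest of its own. H2-M2 reached 9.0 in Fra-2 TG mouse 4, against 4.88 to 5.91 in the other Fra-2 TG mice and 5.84 to 6.28 in WT mice (0.20, SE 0.82, limma adjusted p = 0.963). The difference with the largest size in this class, -0.61 for H2-Q8 (SE 0.53, limma adjusted p = 0.770), came with Fra-2 TG values of 8.44, 9.02, 9.67 and 11.06, against 9.81, 10.75, 9.73 and 10.33 in WT mice. The remaining genes above the floor (H2-Q1, H2-Q5, H2-Q7, H2-Q10, H2-Bl, H2-T9 and H2-T10) differed by -0.32 to 0.11, and the 10 genes under the floor by -0.21 to 0.34.

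B2m, the light chain of all class I molecules encoded on chromosome 2, stood at 15.05, 15.23, 15.34 and 15.57 in Fra-2 TG mice, against 15.78, 15.70, 15.54 and 14.86 in WT mice. WT mouse 4 was the lowest and WT mouse 1 the highest of the 8, so the Fra-2 TG values lay within the WT range (-0.17, SE 0.22, limma adjusted p = 0.853). The second B2m spot gave -0.16.

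**Figure D3:**
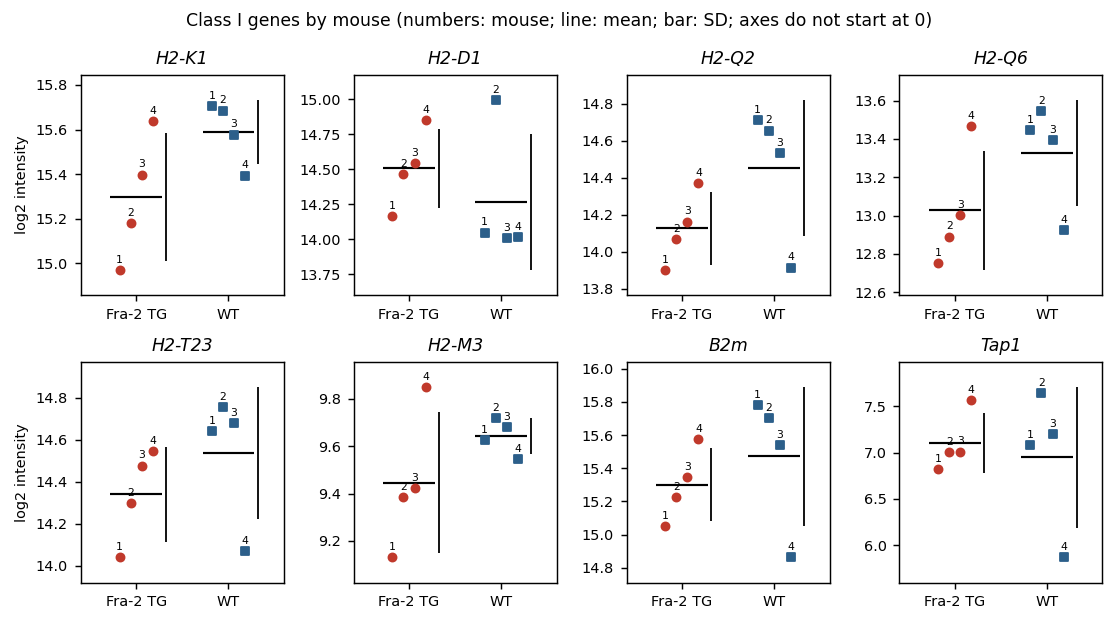
Log2 intensity of 6 class I chain genes, B2m and Tap1 in each mouse, Fra-2 TG left and WT right, with the mouse number beside each point, the group mean as a line and the SD as a bar. In the panels other than H2-D1, WT mouse 4 lies lowest of its group and Fra-2 TG mouse 4 highest of its own, and the groups overlap in every panel.

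Peptide loading genes did not differ beyond the spread between mice. Tap1, a subunit of the peptide transporter, stood at 6.82, 7.0, 7.01 and 7.57 in Fra-2 TG mice, against 7.08, 7.64, 7.20 and 5.87 in WT mice (0.15, SE 0.36, limma adjusted p = 0.927). The low value of WT mouse 4 was seen in all 10 spots, whose median there was 5.88, against 6.86, 7.32 and 7.05 in WT mice 1 to 3. Over the spots the difference ran from -0.20 to 0.48, positive in 8 and negative in 2. Tap2, the other subunit, stood at 12.30, 12.55, 12.52 and 12.05 in Fra-2 TG mice, against 12.19, 12.05, 12.61 and 12.81 in WT mice (-0.06, SE 0.20, limma adjusted p = 0.950), with WT mouse 4 the highest of the 8. Tapbp, tapasin, which holds class I molecules at the transporter, stood at 11.96, 12.00, 12.02 and 11.97 in Fra-2 TG mice, against 11.82, 12.06, 11.75 and 12.15 in WT mice, and the 95% confidence interval of its difference ran from -0.25 to 0.33.

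The immunoproteasome subunits, which replace constitutive proteasome subunits in cells exposed to interferon, split in sign. Psmb8 stood at 11.77, 11.85, 11.98 and 12.37 in Fra-2 TG mice, against 12.02, 12.19, 11.90 and 10.95 in WT mice (0.23, SE 0.28, limma adjusted p = 0.840). Psmb9 stood at 11.28, 11.56, 11.69 and 12.26 in Fra-2 TG mice, against 11.88, 11.95, 12.04 and 11.60 in WT mice (-0.17, SE 0.22, limma adjusted p = 0.848). In both, WT mouse 4 was the lowest WT mouse and Fra-2 TG mouse 4 the highest Fra-2 TG mouse.

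Among class II genes, the I-A molecule is formed by the chains of H2-Aa and H2-Ab1. H2-Aa stood at 11.57, 11.40, 11.03 and 12.43 in Fra-2 TG mice, against 10.25, 11.67, 10.29 and 10.64 in WT mice. All 4 Fra-2 TG values lay above WT mice 1, 3 and 4, and WT mouse 2 lay among them (0.90, SE 0.39, limma adjusted p = 0.548, exact permutation p = 0.114, two-sided). H2-Ab1 had the same arrangement, at 15.43, 15.61, 15.13 and 15.91 in Fra-2 TG mice, against 14.46, 15.67, 14.90 and 14.72 in WT mice (0.58, SE 0.28, limma adjusted p = 0.591), and its second spot gave 0.52. The highest values lay close to the top of the scale.

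H2-Eb1 and H2-Eb2 encode beta chains of the I-E type, and C57BL/6 mice make no I-E molecule because their alpha chain gene is defective. H2-Eb1 stood at 14.53, 14.76, 14.40 and 15.25 in Fra-2 TG mice, against 14.08, 14.90, 14.34 and 13.94 in WT mice (0.42, SE 0.26, limma adjusted p = 0.674). H2-Eb2 stood at 6.58, 7.16, 6.94 and 8.24 in Fra-2 TG mice, against 5.45, 7.03, 6.09 and 5.96 in WT mice. Fra-2 TG mice lay above WT mice 1, 3 and 4, with WT mouse 2 within their range (1.10, SE 0.43, 95% confidence interval 0.12 to 2.07, unadjusted limma p = 0.0321, limma adjusted p = 0.496, exact permutation p = 0.0857, two-sided).

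H2-Ea-ps, the defective alpha chain gene, was the single member whose groups did not overlap, and it was dim. It stood at 2.33, 3.17, 2.52 and 3.77 in Fra-2 TG mice, against 5.78, 3.93, 5.72 and 4.28 in WT mice. All 4 Fra-2 TG values and 2 of 4 WT values lay under the floor, so that the level was at least 1.14-fold lower in Fra-2 TG lungs. Permuting the mice gave an exact two-sided p of 0.0286. Groups of 4 cannot go below this value, and every gene whose groups do not overlap has it, so it only restates the separation. The limma adjusted p was 0.256 with a fitted difference of -1.98 (SE 0.51).

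H2-DMa, H2-DMb1 and H2-DMb2 encode the chaperone that loads class II molecules. H2-DMb2 stood at 7.09, 6.99, 6.96 and 7.91 in Fra-2 TG mice, against 5.61, 7.03, 6.27 and 5.89 in WT mice (1.04, SE 0.34, 95% confidence interval 0.26 to 1.82, limma adjusted p = 0.406, exact permutation p = 0.0857, two-sided). Again WT mouse 2 alone of the WT mice reached the Fra-2 TG values. Its neighbour H2-DMb1 stood at 11.99, 11.90, 11.67 and 12.93 in Fra-2 TG mice, against 11.99, 12.20, 12.18 and 11.82 in WT mice, and differed by 0.08 (SE 0.27, limma adjusted p = 0.951). H2-DMa stood at 10.12, 9.96, 9.67 and 10.18 in Fra-2 TG mice, against 9.65, 10.13, 9.79 and 8.47 in WT mice (0.47, SE 0.34, limma adjusted p = 0.716), and without WT mouse 4 the difference was 0.13.

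H2-Oa and H2-Ob encode H2-O, which restrains H2-DM, chiefly in B cells. H2-Oa stood at 8.95, 9.49, 8.93 and 10.36 in Fra-2 TG mice, against 9.19, 9.85, 9.51 and 8.20 in WT mice (0.24, SE 0.43, limma adjusted p = 0.895). H2-Ob stood at 9.11, 9.40, 8.88 and 10.72 in Fra-2 TG mice, against 9.28, 9.40, 9.90 and 8.07 in WT mice (0.37, SE 0.49, limma adjusted p = 0.860). In both genes Fra-2 TG mouse 4 was the highest and WT mouse 4 the lowest of the 8, and the other 3 mice of each group overlapped.

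Cd74, the invariant chain that escorts class II molecules, stood at 15.12, 15.16, 14.95 and 15.53 in Fra-2 TG mice, against 15.05, 15.34, 15.01 and 14.16 in WT mice (0.30, SE 0.26, limma adjusted p = 0.766). Apart from WT mouse 4 the values ran from 14.95 to 15.53, and without it the difference was 0.06. Ciita, the class II transactivator, was read by 1 spot at the floor, at 4.22, 4.65, 5.48 and 4.37 in Fra-2 TG mice, against 5.30, 5.09, 4.27 and 3.86 in WT mice (limma adjusted p = 0.986), and its level could not be compared at this signal.

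**Figure D4:**
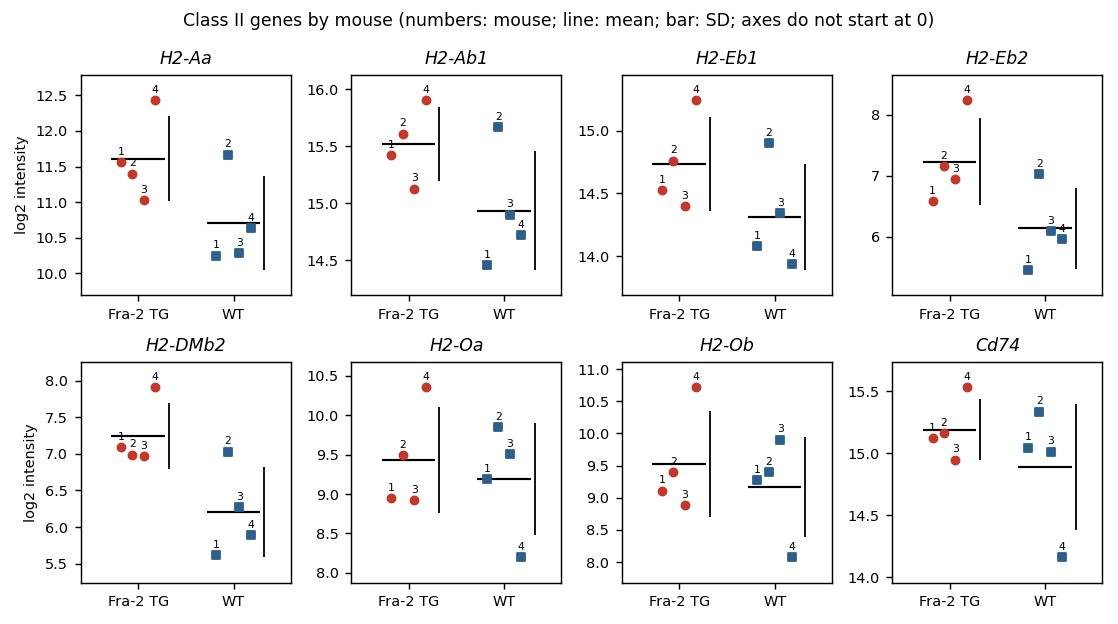
Log2 intensity of 7 class II chain genes and Cd74 in each mouse, Fra-2 TG left and WT right, with the mouse number beside each point, the group mean as a line and the SD as a bar. Fra-2 TG mouse 4 is the highest Fra-2 TG mouse in every panel, WT mouse 2 is the highest WT mouse in every panel but H2-Ob, and the groups overlap throughout.

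Single mice set much of this picture. Fra-2 TG mouse 4 was the highest Fra-2 TG mouse in 31 of the 37 members above the floor (83.8%), against 33.4% of all genes above the floor, and WT mouse 4 was the lowest WT mouse in 24 of 37 (64.9%), against 36.8% of all such genes. Over the 10 class II genes above the floor, Fra-2 TG mouse 4 was the highest in 10, Fra-2 TG mouse 3 the lowest in 9 and WT mouse 2 the highest in 9. Over all genes these same 2 arrays correlated least with their own groups (mean Pearson r = 0.979 for Fra-2 TG mouse 4 and 0.976 for WT mouse 4, against 0.982 to 0.985 for the others).

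Without both mice numbered 4, with 3 mice a group, the class I median lay further from 0 and the class II median closer to it. Of the 19 class I chain genes above the floor, Fra-2 TG mouse 4 was the highest of its group in 16. WT mouse 4 was the lowest of its own in 13. Leaving these mice out therefore lowers those differences and removes overlap by construction, and it can narrow the spread. The counts, SE and p values without them are a description only and do not measure the spread between all mice. Of the 29 class I chain genes 21 were negative (median -0.32), 11 were lower in every Fra-2 TG mouse than in every WT mouse and 0 higher, where 7.76% of all genes were lower and 9.91% higher in this way. The 11 were H2-K1, H2-K2, H2-Q2, H2-Q5, H2-Q6, H2-Q7, H2-Q8, H2-Q10, H2-T23, H2-M3 and H2-Bl, of which H2-Q10 was positive with all mice. B2m (-0.47, SE 0.12), Psmb9 (-0.45, SE 0.14) and Tap1 (-0.36, SE 0.17) were lower without overlap too. None of them passed the test, which 0.0815% of all genes passed, H2-Bl having the smallest limma adjusted p among members (0.0995, difference -0.62). Of the 10 class II genes above the floor, Fra-2 TG mouse 4 was the highest of its group in 10 and WT mouse 4 the lowest of its own in 6. Leaving them out lowers these differences by construction too. In the 6 mice left, the 10 class II chain genes and Cd74 had a median of 0.06, with 6 positive and 5 negative. H2-Eb2 differed by 0.70 (SE 0.42), H2-DMb2 by 0.71 (SE 0.35) and H2-Aa by 0.60 (SE 0.42), while H2-Oa differed by -0.40 (SE 0.24) and H2-Ob by -0.39 (SE 0.22).

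Cells that carry class II molecules were followed through marker lists, given here as the mean log2 level over the markers above the floor. The lists were chosen with earlier results of these data known, so counts within them are a description only. In whole lung, more cells of a type and more RNA per cell cannot be told apart. B cell markers ran from 8.86 to 9.94 in Fra-2 TG mice, against 7.79 to 9.26 in WT mice, with Fra-2 TG mouse 4 highest and WT mouse 4 lowest as in H2-Oa and H2-Ob. All 9 measured B cell genes had positive differences (median 0.41) and 0 passed the test. Ms4a1, which encodes CD20, differed by 1.19 (SE 0.51, limma adjusted p = 0.538). Cd79b, a part of the B cell receptor, differed by 0.75 (SE 0.40), and Blk alone of the list had a mean under the floor. The part of B cells in the class II values was not tested.

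Dendritic cell markers ran from 8.57 to 9.36 in Fra-2 TG mice, against 8.66 to 8.91 in WT mice, with 6 of 12 positive and 0 past the test, and Xcr1 and Itgae under the floor. Without overlap 4 were higher (Itgax, Ccr7, Cd209a and Clec10a) and 0 lower, against 3.99% and 2.54% of all genes. The largest difference was that of Ccr7, a chemokine receptor (0.93, SE 0.38, limma adjusted p = 0.511). Itgax, which encodes CD11c, stood at 11.65, 11.01, 11.32 and 12.02 in Fra-2 TG mice, against 10.87, 10.96, 10.89 and 10.78 in WT mice, without overlap (0.62, SE 0.21, limma adjusted p = 0.430). Cd209a, a lectin of monocyte-derived dendritic cells, differed by 0.56 (SE 0.18) and Clec9a, a receptor of cross-presenting dendritic cells, by -0.83 (SE 0.33), neither past the test (limma adjusted p = 0.395 and 0.507). Macrophage markers ran from 10.86 to 11.18 in Fra-2 TG mice, against 11.155, 11.21, 11.13 and 10.11 in WT mice 1 to 4. WT mouse 4 alone lay below all Fra-2 TG mice, and the other WT mice lay within or above their range. Of 13 differences 12 were positive (median 0.27) and 0 were higher past the test. Marco, a scavenger receptor, was the negative one and passed, lower in Fra-2 TG lungs (-2.08, SE 0.22, limma adjusted p = 0.0105). The 10 alveolar type 2 markers, all above the floor, ran from 14.44 to 14.77 in Fra-2 TG mice, against 14.52 to 14.81 in WT mice. Of them Sftpc, Sftpd, Sftpb and Sftpa1 lay at or close to the upper limit of the scale and had little room to differ, and Abca3, a lipid transporter, was lower without overlap (-0.40, SE 0.18, limma adjusted p = 0.554). General leukocyte markers ran from 11.44 to 12.13 in Fra-2 TG mice, against 10.65 to 11.79 in WT mice, again with mice numbered 4 at the ends. Endothelial markers had 7 of 10 positive differences (median 0.15) and 0 past the test. The part of these cell types in the values was not tested.

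**Figure D5:**
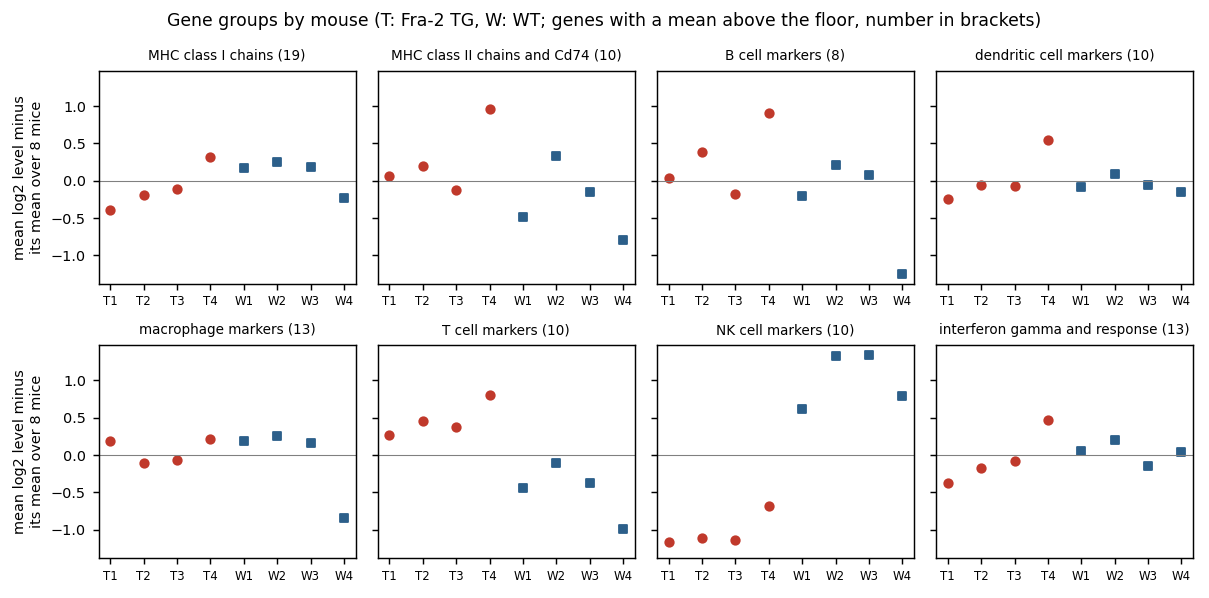
Mean log2 level of class I chains, class II genes and 6 marker or pathway lists in each mouse, as the distance from the mean over all 8 mice, Fra-2 TG mice 1 to 4 (T1 to T4, red) left of WT mice 1 to 4 (W1 to W4, blue). Class II genes and B cell markers are highest in Fra-2 TG mouse 4 and lowest in WT mouse 4, whereas T cell and NK cell markers separate the groups.

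Markers of the lymphocytes that read MHC molecules were followed in the same way. NK cell markers ran from 6.30 to 6.77 in Fra-2 TG mice, against 8.08 to 8.80 in WT mice, with 4 of 10 lower and 0 higher past the test (Klra8, Klre1, Gzma and Ncr1), where 0.0911% of all genes were lower past it. T cell markers ran from 8.65 to 9.19 in Fra-2 TG mice, against 7.39 to 8.28 in WT mice, with 10 of 10 positive and 0 past the test (limma). Before adjustment 8 of them had p under 0.05 and 7 were higher without overlap, against 5.33% and 3.99% of all genes. The mean level of neither list overlapped between the groups, while the class I and class II levels did. Both lists were chosen with earlier results of these data known, so these counts and levels are a description only.

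Interferon-gamma, made by NK and T cells, is an inducer of both MHC classes. Ifng stood at 4.37, 4.82, 4.71 and 4.86 in Fra-2 TG mice, against 5.69, 5.35, 5.53 and 4.96 in WT mice, without overlap. The Fra-2 TG mean lay under the floor, so that the level was at least 1.51-fold lower in Fra-2 TG lungs (limma adjusted p = 0.304). Of 13 measured genes of interferon-gamma and its response 0 passed the test, 7 were positive and 6 negative, with a median of 0.05. Gbp2, an induced GTPase, differed by 0.63 (SE 0.26) and Igtp, another, by -0.57 (SE 0.28).

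Of 13 other genes of class I peptide supply 0 passed and the median was 0.07. Nlrc5, the class I transactivator, stood at 6.52, 7.29, 7.72 and 9.08 in Fra-2 TG mice, against 8.10, 8.50, 8.25 and 8.94 in WT mice. Fra-2 TG mice 1 to 3 lay below all WT mice and Fra-2 TG mouse 4 above them (-0.79, SE 0.49, limma adjusted p = 0.678). Calr, the chaperone calreticulin, differed by 0.31 (SE 0.14) and Psmb7, a constitutive proteasome subunit, by 0.30 (SE 0.15). Of 13 other genes of class II control and loading 0 passed and the median was 0.12, with Ctsb, a lysosomal protease, at 0.22 (SE 0.11), and Cd80, a costimulatory ligand, at -0.35 (SE 0.20). Rfx5, a subunit of the X box binding factor, had a WT mean under the floor and was at least 1.19-fold higher in Fra-2 TG lungs (limma adjusted p = 0.468), with overlapping groups.

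Of 9 class I-like genes outside the H2 symbols 0 passed, 7 were positive and the median was 0.34, where 10925 of all 20863 genes were positive. Without overlap 3 were higher and 0 lower, against 3.99% and 2.54% of all genes. Raet1e, a ligand of the activating receptor NKG2D, stood at 7.94, 7.95, 7.81 and 7.82 in Fra-2 TG mice, against 6.70, 7.23, 7.18 and 7.30 in WT mice, without overlap (0.78, SE 0.15, limma adjusted p = 0.150). Ulbp1, another NKG2D ligand, had a WT mean under the floor and was at least 1.06-fold higher in Fra-2 TG lungs. Cd1d1, which presents lipids to NKT cells, differed by 0.40 (SE 0.17), and in both the groups did not overlap. For these genes too the limma adjusted p, 0.401 and 0.533, missed the threshold.

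The region genes H2-Ke2, a prefoldin subunit, and H2-Ke6, a steroid dehydrogenase, differed by 0.21 and 0.07 (limma adjusted p = 0.695 and 0.888). Several members were read by spots that differed. The 2 spots of H2-Q10, a class I gene, gave 0.11 and -0.49, and those of H2-T24 gave -0.35 and -0.70. The 2 H2-Ob spots above the floor gave 0.37 and 0.90. Fosl2 itself was read by a brighter spot with a difference of -0.75 and overlapping groups and by a dimmer one at least 4.06-fold higher in Fra-2 TG lungs without overlap, its WT mean being under the floor, so that it does not settle the genotype labels.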

How the data were processed

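Each of the 8 arrays, 1 per mouse, holds 62976 spots, and the deposited table gives their intensity, not in logarithms. The deposited values have nearly the same distribution on all arrays (median 26.6 on each), as normalised values have. How this was done, the sources used here do not give. R 2.15.1 and limma 3.14.4 are named in the submitters' processing notes. Cy5 labelling followed Agilent's low-input procedure, per the labels' protocols. No flags for saturation or background were used here.

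Deposited intensities were turned to log2 without an offset. In R 4.3.3, limma 3.58.1 (lmFit and eBayes, group alone) then tested 20863 genes together. Spots carried 1 platform symbol (31465) or none here (31511). Membership followed the platform symbol. Other symbols were updated through RefSeq accessions (29050 spots matched), and the brightest spot by mean log2 stood for a gene. Permutation tests enumerate all splits of the 8 mice for single values. For a group whose mean is below the floor, a fold is a bound, against that group's mean with each dim value raised to the floor. The fit was tested on simulated data. Python 3.11.15 and matplotlib 3.10.9 drew the figures.

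Members and lists were chosen with earlier results of these data known. Values by mouse are given for members of each role above the floor and for the non-classical class I genes above the floor with the 6 smallest p, and in the other lists for genes past the threshold or with the 3 smallest p. H2-Ea-ps, Ciita, H2-T23, H2-M2, H2-Q8, Nlrc5 and some marker genes, among them Ccr7, Clec10a and those under the floor, were named beyond this rule after their values were seen. The labels name separate animals, so replicates are mice. The labels give no pairing of mice with the same number in the 2 groups. Such mice deviated together weakly at most (correlations of 0.14, -0.01, 0.15 and 0.08), which does not settle whether they are paired. The number of arrays limits the precision. Alternatives covered scaling, offsets, dim genes, variance model, spot choice, gene names, a block, left-out mice and thresholds.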

Additional observations from a re-analysis of the deposited data

Results flagged for a closer look

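In 8 of 98 groups of 4 mice, 1 mouse lay far from the others by Dixon's test. Among independent groups chance gives about 1 in 20. The 98 groups come from 49 genes read on the same 8 arrays, and class I genes are near copies of each other. They are not independent, so the count of 8 is a description only and cannot be held against that rate. WT mouse 4 was the far one, and low, in 5 class I genes: H2-Bl at 10.40 (11.43 to 11.51 in the other WT mice), H2-K2 at 14.26 (14.997 to 15.03), H2-Q10 at 9.24 (10.38 to 10.59), H2-Q5 at 13.58 (14.19 to 14.31) and H2-T23 at 14.07 (14.64 to 14.75). Fra-2 TG mouse 4 was far and high in H2-DMb2 at 7.91 (6.96 to 7.09 in the other Fra-2 TG mice) and in H2-M10.3 at 5.48 (4.17 to 4.32), a gene with a mean under the floor. WT mouse 2 was far and high in H2-D1 at 14.99 (14.01 to 14.05 in the other WT mice).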

How the results depend on the processing

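Of 23 alternatives, none made a member pass an adjusted threshold, so the count of members past the test stayed at 0. At an unadjusted limma p under 0.05 the count was 3, and by the exact permutation test under 0.05 it was 1 (H2-Ea-ps). The count over all genes, 45, was 80 and 88 with 16 and 32 added before the logarithm, 71 without dim genes, 118 with a trended and robust variance, 76 at an adjusted threshold of 0.10, 17 without both mice numbered 4 and 17 (without WT mouse 2) to 38 when 1 mouse was left out. It was 1910 at an unadjusted p under 0.05 and 1362 by the permutation test, which are the genes whose groups do not overlap. With the mouse number as a replicate block it was 5 genes and 0 members. Fra-2 TG mice 1, 3 and 4 correlated best with the WT mouse of their own number and mouse 2 did not. These correlations were weak (0.15 at most) and do not settle whether mice are paired, and the design gives no pairing. Of 565 values of 27 genes named, 542 kept their side of 0 and of the threshold, 22 changed sign and 1 became stronger. The variance model, the block and the gene names leave these differences as they are by construction, and rescaling hardly moved them. The count of 542 is therefore no measure of stability. Without both mice numbered 4 the median over the genes named was -0.24, against 0.05 with all mice, and the sign turned for Cd74 (-0.0541), Ciita (-0.11), H2-DMb1 (-0.27), H2-Oa (-0.40), H2-Ob (-0.39), Psmb8 (-0.17), Tap1 (-0.36) and Tap2 (0.17). With 1 mouse left out, the differences ran from -0.22 to 0.27 for Ciita, -0.19 to 0.23 for H2-DMb1, -0.0876 to 0.46 for H2-Oa, -0.031 to 0.61 for H2-Ob, -0.0433 to 0.37 for Psmb8, -0.21 to 0.38 for Tap1, -0.18 to 0.0721 for Tap2 and -0.020 to 0.11 for Tapbp. Without changing sign, H2-Gs10 (-0.08) and H2-T24 (-0.11) came closer to 0 without Fra-2 TG mouse 4, and Psmb9 (-0.03) without Fra-2 TG mouse 1. The median of the class II genes above the floor ran from 0.21 (without WT mouse 4) to 0.65 (without WT mouse 2), against 0.45 with all mice and 0.09 without both mice numbered 4. The cause was not tested. Signals near the floor, as in Ciita and H2-Ea-ps, and near the top of the scale limit what could be measured.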
